A study of Mus musculus with 36 samples.

Results

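Whole intestines of E18.5 mouse embryos with a catalytically inactive caspase-8 and no MLKL, *Casp8* C362A/C362A *Mlkl*-/-, were compared by RNA sequencing with intestines of *Mlkl*-/- embryos of the same set. The libraries were chosen by their labels, as the 3 with the genotype Casp8 C362A KI Mlkl KO and the 3 Mlkl KO controls deposited with them, which makes 6 of the 36 libraries of the series and 6 of its 30 intestine libraries. No measured value entered that choice. The series asks what a caspase-8 that cannot process itself, D387A, does in the absence of its partner cFLIP, and the C362A embryos show the intestine when the protease is inactive. All 6 embryos lacked *Mlkl*, none was treated, each library came from a different embryo, and the mice had a C57BL/6N background. Because the controls lacked *Mlkl* too, the comparison shows the C362A change in a *Mlkl* deficient background, and it holds no embryo with intact *Mlkl*.

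Caspase-8 is the protease that starts apoptosis below death receptors such as Fas and TNF receptor 1, where FADD recruits it together with cFLIP. It also cleaves RIPK1 and RIPK3 and thereby restrains necroptosis, the lytic death in which RIPK3 phosphorylates MLKL and MLKL breaks the plasma membrane. C362A exchanges the cysteine of the active site, so the protein keeps its binding domains but cuts nothing, and earlier work found that such a protein can act as a scaffold for ASC and caspase-1 when MLKL is absent. In the late embryonic intestine, absorptive enterocytes make up most of the lining, and interferons and NF-κB control its antiviral and antimicrobial genes.

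Reads on genes numbered 28507734, 31052238 and 23968160 in *Mlkl*-/- embryos 1, 2 and 3 and 26844099, 25509179 and 26958432 in the *Casp8* C362A/C362A *Mlkl*-/- embryos. These totals overlapped (two-sided exact permutation p = 0.5, where 3 against 3 cannot give less than 0.1). At least 5 reads were found for 19601, 20105 and 19960 genes in the *Mlkl*-/- and for 20320, 20736 and 20464 genes in the *Casp8* C362A/C362A *Mlkl*-/- libraries. The 100 most abundant genes held 20.3%, 22.2% and 23.1% of the reads in the *Mlkl*-/- and 16.5%, 16.1% and 16.97% in the *Casp8* C362A/C362A *Mlkl*-/- libraries. Both measures separated the groups without overlap (exact permutation p = 0.1 each). Mitochondrially encoded genes held 1.66%, 2.01% and 2.35% of the *Mlkl*-/- reads and 1.25%, 1.84% and 1.78% of the *Casp8* C362A/C362A *Mlkl*-/- reads, and the ranges overlapped (exact permutation p = 0.3). A principal component analysis placed 81.3% of the variance on an axis that parted the genotypes and 9.54% on a further axis along which the third *Mlkl*-/- and the second *Casp8* C362A/C362A *Mlkl*-/- embryo lay at the same end. Those are the male embryos, since *Xist* stood at 0.140 and 0.0261 RPKM in them and at 106, 122, 111 and 148 RPKM in the other 4, while *Kdm5d* stood at 5.54 and 5.32 RPKM in them and at no more than 0.00421 RPKM elsewhere. A pair of libraries stood apart for genes of other organs, the third *Mlkl*-/- embryo for erythroid and some liver genes and the third *Casp8* C362A/C362A *Mlkl*-/- embryo for stomach genes. RPKM, the reads on a gene scaled to its length in kilobases and to the library size, is used for all levels given here, and log2 fold changes are *Casp8* C362A/C362A *Mlkl*-/- over *Mlkl*-/-.

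The C362A intestine differed from its controls in 3487 of 19408 genes tested, 2756 of them protein-coding. Genes of interferon responses, chemokines, antigen presentation and antimicrobial defence were higher, and genes of lipid absorption and fatty acid oxidation and some brush border enzymes were lower, while genes of the smooth muscle and connective tissue of the gut wall stayed near their control levels. Genes were called when the log2 fold change exceeded 1 in size and the adjusted p fell below 0.05 in the quasi-likelihood test of edgeR, adjusted by Benjamini-Hochberg. By that rule 2021 genes (10.4% of those tested) were higher and 1466 (7.55%) lower, 18% in either direction, and the median log2 fold change over all genes tested was 0.02. Scaling by raw library totals in place of TMM moved that median to 0.17. The shares called higher and lower are to be set beside each list count below, since a short list reaches them with few genes. The rises reached further than the falls, with 303 genes above a log2 fold change of 4 and 63 below -4, and 182 above 5 against 33 below -5. No overlap between the 3 embryos of one genotype and the 3 of the other was seen in 53.6% of the genes tested, and this held for 3427 of the 3487 called genes. In whole intestine, fewer cells of a type and less RNA per cell cannot be told apart.

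**Figure D1:**
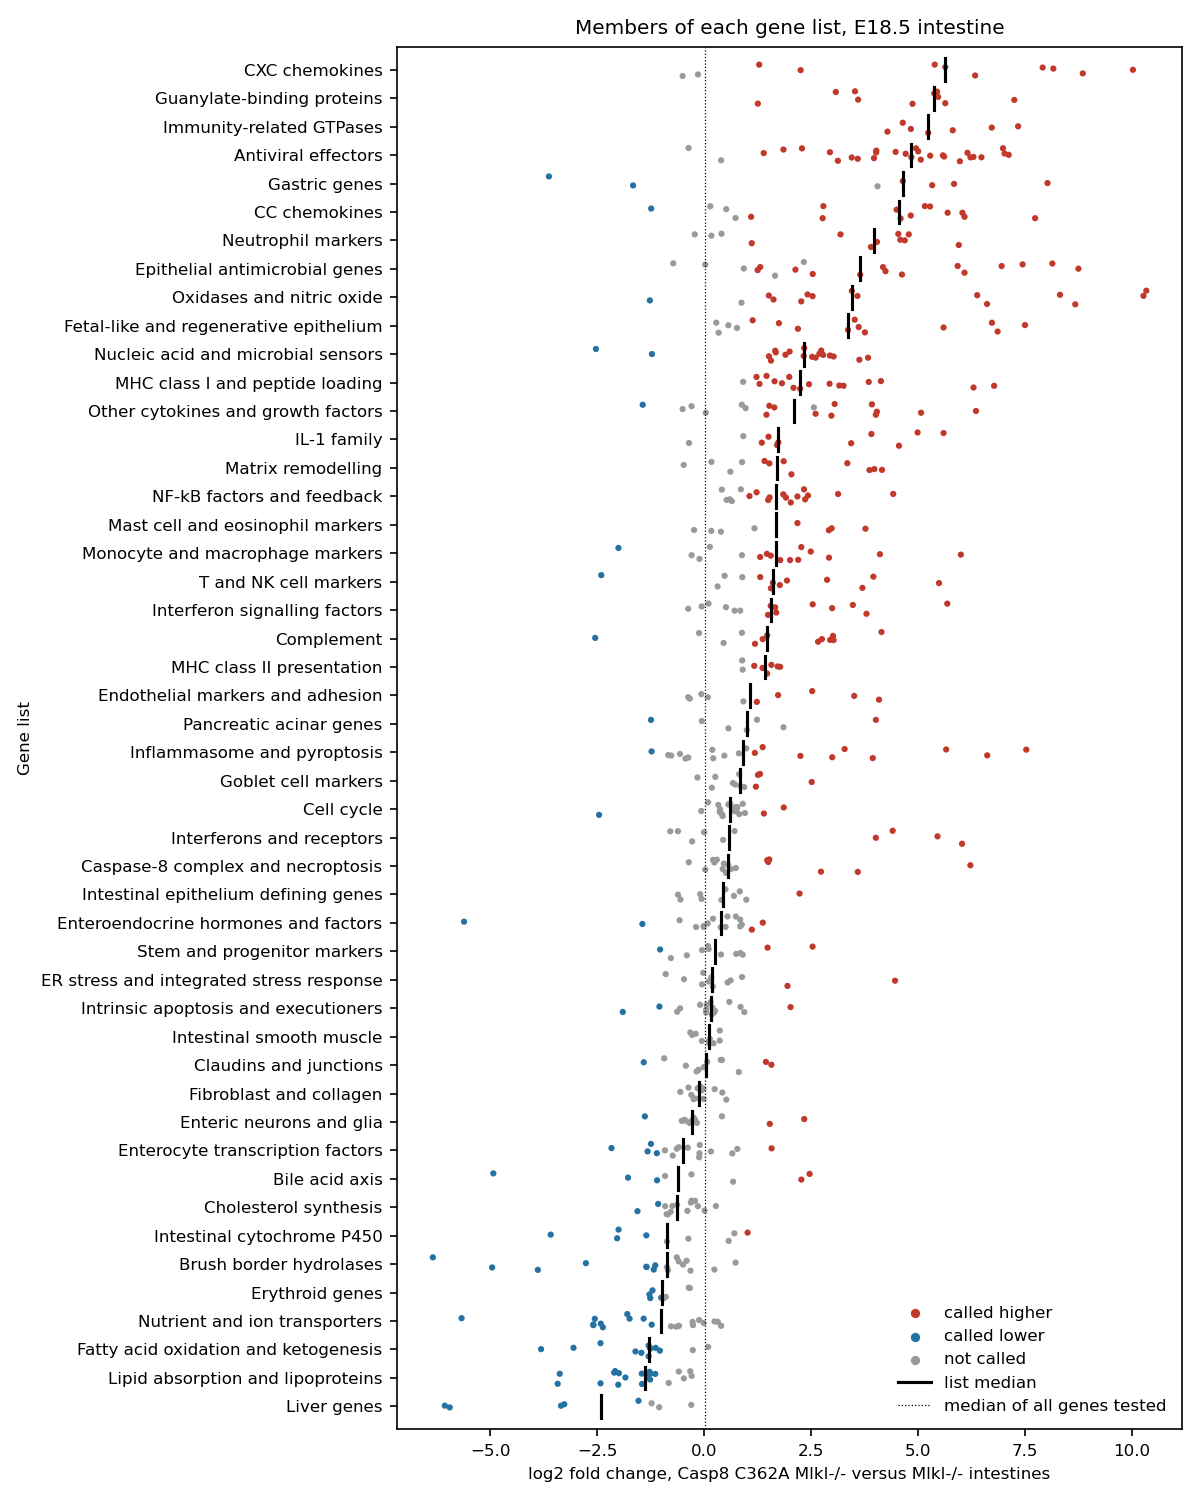
Each point is the log2 fold change of 1 tested gene, *Casp8* C362A/C362A *Mlkl*-/- over *Mlkl*-/- intestines with 3 embryos each, placed by gene list and coloured by whether it was called higher, called lower or not called, with a bar at each list's median and a dotted line at the median of all genes tested. The medians of the CXC chemokines (5.64), guanylate-binding proteins (5.38) and immunity-related GTPases (5.24) lie farthest right, those of the lipid absorption (-1.39) and liver genes (-2.41) farthest left.

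The targeted genes were measured first. *Casp8*, at chr1:58795374-58847503 on the forward strand of GRCm38, stood at 34.1, 29.6 and 24.2 RPKM in the controls and 49.2, 47.3 and 49.9 RPKM in the mutants. Every mutant embryo lay above every control, but the log2 fold change of 0.74 (edgeR quasi-likelihood with Benjamini-Hochberg, adjusted p = 1.66e-04, standard error 0.118) stayed under the fold threshold, and gene counts cannot show the C362A base change itself. *Mlkl*, the executioner of necroptosis that both groups lack, still gave reads, 1.07, 1.25 and 1.94 RPKM in the controls and 14.99, 18.03 and 17.8 RPKM in the mutants. These remaining transcripts rose in all 3 mutant embryos, with a log2 fold change of 3.59 (same edgeR test, adjusted p = 1.18e-08, standard error 0.213), so the reads do not check the deletion, which both groups share. *Casp1*, intact in both groups and the inflammatory caspase that matures IL-1β and IL-18, stood at 33.1, 45.2 and 43.2 RPKM and 75.8, 83.01 and 80.9 RPKM, groups that did not overlap, and its log2 fold change of 0.98 missed the threshold of 1. *Cflar*, which encodes cFLIP and was intact as well, stood at 6.99, 6.93 and 7.27 RPKM in the controls and 7.95, 8.76 and 9.21 RPKM in the mutants, a log2 fold change of 0.29 that was not called.

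Of 18 genes of the caspase-8 complex and necroptosis, 17 were tested, 6 were called higher and none lower, and their median was 0.56 beside 0.02 over all genes tested. *Zbp1*, whose protein senses Z-form nucleic acid and binds RIPK3, stood at 0.986, 2.43 and 2.03 RPKM in the *Mlkl*-/- and 134, 133 and 140.1 RPKM in the *Casp8* C362A/C362A *Mlkl*-/- embryos. The mutant embryos were alike and all far above the controls, a log2 fold change of 6.22. *Ripk3*, the kinase of MLKL, rose from 19.5, 16.01 and 18.8 RPKM to 53.6, 44.4 and 52.5 RPKM, with no overlap and a log2 fold change of 1.47 (edgeR quasi-likelihood with Benjamini-Hochberg, adjusted p = 1.15e-07, standard error 0.112). *Tnfsf10*, the death ligand TRAIL, rose by 2.73 on the log2 scale, the death receptor *Fas* by 1.52 and the ubiquitin ligase cIAP2, *Birc3*, by 1.49. The adaptor *Fadd* stood at 10.3, 10.7 and 9.47 RPKM in the controls and 8.49, 7.58 and 7.63 RPKM in the mutants and was not called. *Ripk1*, the kinase upstream of both death pathways, was not called either, at 9.77, 10.6 and 8.66 RPKM against 11.1, 11.2 and 11.9 RPKM, nor were the TNF receptor gene *Tnfrsf1a* (0.43), *Tradd* (0.56), *Traf2* (0.51) and *Cyld* (0.20).

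All 20 genes of the inflammasome and pyroptosis list were tested, 9 were higher, 1 was lower, 10 were not called, and the median was 0.89. Among the sensors, *Nlrp3*, which answers membrane damage and ion efflux, rose from 0.136, 0.102 and 0.140 RPKM to 1.48, 2.05 and 2.26 RPKM, and the pyrin gene *Mefv* rose from 0.280, 0.220 and 0.598 RPKM to 2.93, 3.68 and 3.88 RPKM. Neither gene's groups overlapped, and their log2 fold changes were 3.94 and 3.28. The DNA sensor *Aim2* rose by 1.36, while *Nlrp6*, a sensor of the intestinal epithelium, fell from 68.3, 57.8 and 48.5 RPKM to 28.4, 19.8 and 25.97 RPKM, a log2 fold change of -1.23 (edgeR quasi-likelihood with Benjamini-Hochberg, adjusted p = 2.54e-05, standard error 0.162). The receptors for bacterial flagellin and secretion systems were not called, with log2 fold changes of -0.77 for *Naip1*, -0.37 for *Naip2*, -0.44 for *Naip5*, -0.84 for *Naip6* and 0.19 for their partner *Nlrc4*. The adaptor ASC, *Pycard*, stood at 62.2, 70.7 and 75.98 RPKM in the controls and 79.3, 82.8 and 79.3 RPKM in the mutants and was not called. *Casp4*, the caspase-11 that binds cytosolic lipopolysaccharide, rose from 7.38, 8.90 and 12.3 RPKM to 67.3, 84.2 and 74.96 RPKM, and the groups did not overlap.

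Gasdermins, the pore-forming proteins at the end of pyroptosis, differed by member. *Gsdmd*, the substrate of caspase-1 and caspase-11, stood at 128, 156 and 170.5 RPKM in the controls and 199, 214 and 215 RPKM in the mutants and was not called (0.47). *Gsdmc2*, at chr15:63824346-63845177 on the reverse strand, stood at 0.0795, 0.253 and 0.395 RPKM in the controls and 32.2, 45.2 and 54.4 RPKM in the mutants. From near 0 in every control it reached at least 32.2 RPKM in every mutant embryo, a log2 fold change of 7.53 (edgeR quasi-likelihood with Benjamini-Hochberg, adjusted p = 7.31e-09, standard error 0.425). Its neighbour *Gsdmc4* rose from 0.159, 0.231 and 0.418 RPKM to 21.9, 23.4 and 32.5 RPKM and *Gsdmc3* from 0.0790, 0.266 and 0.318 RPKM to 7.69, 11.05 and 14.5 RPKM, again without overlap. These 3 genes are close copies, so the share of reads among them is uncertain. *Gsdme*, a further pore-former, rose by 1.18, and the membrane rupture gene *Ninj1* stood at 40.8, 54.4 and 66.2 RPKM in the controls and 38.00, 33.97 and 36.8 RPKM in the mutants, with a log2 fold change of -0.57 that was not called.

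Genes of mitochondrial apoptosis moved little as a group, with 1 higher and 2 lower of 17 tested and a median of 0.15. *Casp6*, a caspase that cleaves lamins, fell from 73.8, 89.9 and 81.9 RPKM in the *Mlkl*-/- to 23.3, 16.9 and 25.2 RPKM in the *Casp8* C362A/C362A *Mlkl*-/- embryos, all mutants under all controls, a log2 fold change of -1.91 (edgeR quasi-likelihood with Benjamini-Hochberg, adjusted p = 1.65e-07, standard error 0.151). *Casp9*, the apoptosome caspase, fell from 17.4, 16.6 and 13.6 RPKM to 8.18, 7.20 and 7.62 RPKM, a log2 fold change of -1.05 that dropped to -0.90 and was no longer called with raw library totals. The pore-former *Bax* (0.05) and the survival gene *Bcl2* (0.04) had overlapping groups. The caspase-8 substrate *Bid* stood at 10.2, 11.4 and 11.2 RPKM in the controls and 18.7, 19.3 and 20.9 RPKM in the mutants, which did not overlap, but its log2 fold change of 0.85 was under the threshold.

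Ligands and receptors of the IL-1 family were higher in 9 of 11 genes tested, of 12 listed, with none lower and a median of 1.73. *Il1b* stood at 1.98, 0.736 and 1.58 RPKM in the controls and 44.1, 43.5 and 47.6 RPKM in the mutants, and *Il1a*, its partner on the same receptor, stood at 5.53, 6.48 and 6.51 RPKM and 20.7, 15.7 and 25.01 RPKM. Both rose without overlap, by 4.99 and 1.73 on the log2 scale. *Il33*, an alarmin of barrier tissues, rose from 5.11, 4.82 and 3.63 RPKM to 12.9, 14.9 and 16.4 RPKM, and its receptor ST2, *Il1rl1*, from 0.452, 0.634 and 0.395 RPKM to 6.49, 6.16 and 9.73 RPKM. Brakes of the family rose as well. *Il1rn*, the IL-1 receptor antagonist, stood at 0.285, 0.585 and 0.435 RPKM in the controls and 16.3, 19.6 and 27.7 RPKM in the mutants, a log2 fold change of 5.59 (edgeR quasi-likelihood with Benjamini-Hochberg, adjusted p = 6.47e-09, standard error 0.309), and the decoy receptor *Il1r2* stood at 1.11, 0.970 and 2.06 RPKM and 28.1, 32.9 and 34.7 RPKM, a log2 fold change of 4.55 (same edgeR test, adjusted p = 8.80e-09, standard error 0.262). *Il18bp*, which neutralises IL-18, rose by 3.43, whereas *Il18* itself had overlapping groups, at 26.2, 39.6 and 39.5 RPKM in the controls and 31.7, 22.7 and 27.8 RPKM in the mutants, and was not called.

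Among other cytokines and growth factors, 18 of 22 were tested, 11 were higher, 1 lower, and the median was 2.10. *Tnf* stood at 0.0449, 0.210 and 0.266 RPKM in the controls and 4.72, 6.74 and 5.95 RPKM in the mutants, a log2 fold change of 5.07 (edgeR quasi-likelihood with Benjamini-Hochberg, adjusted p = 2.31e-07, standard error 0.415). The EGF receptor ligands *Areg* and *Ereg*, which drive epithelial repair, rose from 2.27, 2.32 and 3.95 RPKM to 44.7, 36.99 and 46.3 RPKM and from 0.766, 0.875 and 1.13 RPKM to 6.66, 7.26 and 8.92 RPKM. *Osm*, a cytokine of the IL-6 family, rose by 4.01, *Il11* by 2.60 and the macrophage growth factor *Csf1* by 1.52. *Csf2*, which encodes GM-CSF, was the member that fell, from 1.43, 2.19 and 3.54 RPKM to 0.542, 0.979 and 1.08 RPKM (-1.44). *Il6* had 5 reads over the controls and 93 over the mutants, and its call (adjusted p = 0.0381 in the same edgeR test) was lost whichever of the 6 libraries was left out, with an adjusted p between 0.0547, without the third mutant embryo, and 0.118, without the second control embryo. *Il12b* had no read in the controls and 32 reads in the mutants, a rise of at least 10.1-fold by a floor of 3 reads over the group. The list's median was the same, 2.10, with *Il12b* set at that bound. No read of *Il17a* was found in any of the 6 embryos, and *Il22* had 8 reads, all of them in mutants.

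Chemokines, the attractants of leukocytes, were among the steepest rises. All 11 CXC genes were tested, 9 were higher and none lower, with a median of 5.64, and of 18 CC genes 16 were tested, 12 higher and 1 lower, with a median of 4.54. The ligands of CXCR2, which draw neutrophils, came from near 0. *Cxcl1* stood at 0.154, 0.108 and 0.183 RPKM in the *Mlkl*-/- and 7.10, 6.58 and 8.84 RPKM in the *Casp8* C362A/C362A *Mlkl*-/- embryos, *Cxcl5* rose by 6.33 on the log2 scale, and *Cxcl2*, with 6 reads over the controls, by 7.91. Every mutant embryo lay above every control for each of these genes. The interferon-induced *Cxcl11*, named for a CXCR3 ligand, stood at 0.00970, 0.00907 and 0.0230 RPKM in the controls, which is 4 reads in all, and at 5.60, 6.51 and 8.07 RPKM in the mutants. The annotation lists *Cxcl11* as a polymorphic pseudogene, so its reads do not show that a protein is made. *Cxcl16*, present in both genotypes, rose from 11.1, 11.2 and 15.7 RPKM to 55.1, 62.1 and 63.95 RPKM.

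In the CC family, the monocyte attractant *Ccl2* stood at 0.407, 0.381 and 0.483 RPKM in the controls and 25.4, 31.8 and 29.5 RPKM in the mutants, a log2 fold change of 6.08 (edgeR quasi-likelihood with Benjamini-Hochberg, adjusted p = 1.55e-08, standard error 0.373). *Ccl5*, made by lymphocytes and virus-sensing cells, rose from 0.830, 1.62 and 0.819 RPKM to 32.5, 41.04 and 46.1 RPKM without overlap, and *Ccl22*, a CCR4 ligand of dendritic cells, from 0.0664, 0.0155 and 0 RPKM to 8.24, 6.33 and 4.96 RPKM. *Ccl24*, an attractant of eosinophils that was already present in the controls at 8.95, 12.9 and 14.9 RPKM, reached 81.7, 70.7 and 100.3 RPKM in the mutants. *Ccl25*, which small intestinal enterocytes make and which recruits CCR9 lymphocytes, fell from 111, 139.9 and 157 RPKM to 52.5, 62.3 and 57.8 RPKM, a log2 fold change of -1.24 (same edgeR test, adjusted p = 0.00143, standard error 0.261). Its groups did not overlap either, and it was the only CC gene called lower.

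NF-κB target and feedback genes rose together, with 13 of 18 higher, none lower and a median of 1.69. *Nfkbia*, the inhibitor that NF-κB itself induces, stood at 20.2, 20.3 and 18.2 RPKM in the controls and 94.6, 80.6 and 90.7 RPKM in the mutants, a log2 fold change of 2.18 (edgeR quasi-likelihood with Benjamini-Hochberg, adjusted p = 3.04e-08, standard error 0.144). The alternative pathway subunits *Relb* and *Nfkb2* rose by 2.33 and 1.85, and the atypical inhibitor *Bcl3* by 2.36. *Nfkbie* was nearly constant within each genotype, at 2.57, 2.73 and 2.66 RPKM in the controls and 10.8, 10.8 and 10.8 RPKM in the mutants. The deubiquitinase A20, *Tnfaip3*, rose by 1.49 and the ribonuclease *Zc3h12a*, which degrades cytokine transcripts, by 2.42. The subunits *Rela* and *Nfkb1* were not called, with log2 fold changes of 0.41 and 0.64. *Traf1*, called at 1.06, dropped under the threshold without the first control (0.96), the second control (0.98) or the second mutant embryo (0.93).

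Interferon genes themselves gave few reads. Of 15 interferon and receptor genes 10 were tested, 4 were higher and none lower, and the median was 0.57, the same with genes at 0 reads set at their bounds. *Ifnb1* had no read in the 3 *Mlkl*-/- embryos and 17 reads in the 3 *Casp8* C362A/C362A *Mlkl*-/- embryos, 0.193, 0.380 and 0.241 RPKM, which is at least 5.38-fold by the floor of 3 reads. *Ifng*, the interferon of NK and T cells, had 1 read in the controls and 94 reads in the mutants, 0.868, 0.885 and 1.05 RPKM, and the ratio of the scaled reads was 89.3 (95% exact counting interval 15.6 to 3563). The interferon lambda genes *Ifnl2* and *Ifnl3*, close copies of each other, had no reads in the controls and 6 and 8 reads in the mutants. Of 14 alternatives that tested it, the call of *Ifnl2* was lost in 3, with an edgeR adjusted p of 0.1246 without the first mutant embryo. The call of *Ifnl3* was lost in 6 of 14, among them the fits without any one of the controls. Its edgeR adjusted p was 0.0996 without the third mutant embryo. *Ifna1* and *Ifna2* had no read in any of the 6 embryos and *Ifna4* had 1. Receptor genes were not called, with *Ifnar1* at 23.6, 26.4 and 25.9 RPKM in the controls and 24.9, 25.2 and 25.6 RPKM in the mutants. The interferon lambda receptor gene *Ifnlr1* stood at 16.3, 18.02 and 21.99 RPKM and 13.4, 11.5 and 11.9 RPKM and its partner *Il10rb* had a log2 fold change of -0.80, both below the controls without overlap yet above the threshold of -1.

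Signalling factors below those receptors rose in 9 of 15 genes, none fell, and the median was 1.55. *Irf7*, the amplifier of type I interferon, stood at 21.9, 33.7 and 47.9 RPKM in the controls and 449, 496 and 486 RPKM in the mutants, a log2 fold change of 3.79 (edgeR quasi-likelihood with Benjamini-Hochberg, adjusted p = 3.30e-08, standard error 0.253). *Irf9* rose from 15.9, 21.5 and 26.4 RPKM to 55.3, 68.6 and 63.2 RPKM and *Irf1*, a target of interferon gamma, from 35.3, 44.8 and 49.2 RPKM to 141, 133 and 141 RPKM. None of these groups overlapped. Negative regulators rose as well. *Usp18*, which removes ISG15 and blocks the type I receptor, reached 171, 177 and 212 RPKM from 2.06, 3.59 and 5.32 RPKM, and *Socs1* reached 40.3, 39.6 and 45.8 RPKM from 4.01, 3.24 and 4.07 RPKM. The constitutive factor *Irf3* had overlapping groups (-0.06), and the kinase genes *Jak1* (0.10) and *Tyk2* (-0.38) were not called.

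Antiviral effector genes were higher in 27 of 29 genes tested, with none lower and a median of 4.84. Summed over the list, levels were 358, 422 and 449 RPKM in the controls and 6521, 6498 and 7374 RPKM in the mutants. *Isg15*, a ubiquitin-like modifier at chr4:156199424-156200818 on the reverse strand, was the most abundant member, at 6.86, 16.8 and 22.1 RPKM in the controls and 1312, 1275 and 1489 RPKM in the mutants. Controls varied among themselves by more than the mutants did in proportion, yet all mutants lay far above them, a log2 fold change of 6.48 (edgeR quasi-likelihood with Benjamini-Hochberg, adjusted p = 7.20e-09, standard error 0.366). *Bst2*, which tethers budding virus, rose from 43.7 ± 6.62 RPKM to 970.4 ± 50.9 RPKM (mean ± SD, n = 3 each). *Oas3*, which makes the activator of RNase L, rose from 0.226, 0.321 and 0.342 RPKM to 36.6, 35.6 and 43.1 RPKM, *Ifit2* from 3.06, 3.88 and 6.07 RPKM to 294, 323 and 401 RPKM and *Rsad2*, the viperin gene, from 1.93, 2.42 and 5.95 RPKM to 209, 228 and 293 RPKM. In each of them the third control embryo was the highest of the controls. The members not called were *Ifitm2*, at 102, 87.7 and 80.9 RPKM and 138, 102 and 115 RPKM (0.39), and *Ifi27*, whose groups overlapped (-0.37), while its relative *Ifi27l2a* rose by 4.84. Reads of close copies, such as *Ifit3* and *Ifit3b*, are uncertain.

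The GTPases that attack vacuoles of intracellular microbes all rose. Of 11 guanylate-binding proteins 11 were higher, with a median of 5.38, and of 7 immunity-related GTPases 7 were higher, with a median of 5.24. The annotation lists *Gbp11*, counted among the guanylate-binding proteins, as a polymorphic pseudogene, so its reads do not show that a protein is made. *Gbp2* stood at 2.25, 2.79 and 2.22 RPKM in the *Mlkl*-/- and 125, 88.1 and 103 RPKM in the *Casp8* C362A/C362A *Mlkl*-/- embryos and *Gbp5*, which promotes NLRP3 assembly, at 0.542, 0.507 and 0.400 RPKM and 20.8, 19.5 and 22.8 RPKM. Their log2 fold changes were 5.44 and 5.43. *Irgm1*, the regulator of the family, rose from 7.63, 8.88 and 8.38 RPKM to 230.1, 213 and 265 RPKM, a log2 fold change of 4.83 (edgeR quasi-likelihood with Benjamini-Hochberg, adjusted p = 1.90e-10, standard error 0.176), and the effector *Iigp1* rose from 2.19, 3.51 and 2.92 RPKM to 143, 156 and 185 RPKM. The lowest rise of the guanylate-binding proteins was that of *Gbp2b*, from 1.36, 1.83 and 1.99 RPKM to 4.92, 3.86 and 3.53 RPKM. *Gbp2b* resembles *Gbp2*, and *Tgtp1* (6.72) resembles *Tgtp2* (7.34), so the counts of each are uncertain.

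Sensors of nucleic acids and microbes were higher in 17 of 19 genes and lower in 2, with a median of 2.33. Cytosolic RNA sensors rose from levels already present, *Ifih1* (MDA5) from 3.75, 4.70 and 5.10 RPKM to 30.9, 33.1 and 39.8 RPKM and *Ddx58* (RIG-I) by 1.90. The DNA sensor *Cgas* rose from 0.874, 1.26 and 1.13 RPKM to 4.84, 7.59 and 6.30 RPKM and its partner STING, *Tmem173*, from 3.48, 3.86 and 3.50 RPKM to 19.9, 15.7 and 18.7 RPKM. The lipopolysaccharide co-receptor *Cd14* rose by 3.63. The genes that fell were *Tlr5*, the flagellin receptor, from 7.63, 7.89 and 7.63 RPKM to 1.26, 1.45 and 1.28 RPKM, a log2 fold change of -2.53 (edgeR quasi-likelihood with Benjamini-Hochberg, adjusted p = 1.97e-09, standard error 0.1246), and *Mavs*, the mitochondrial adaptor of the RNA sensors, from 38.97, 41.6 and 38.5 RPKM to 20.02, 13.9 and 17.1 RPKM, a log2 fold change of -1.23 (same edgeR test, adjusted p = 1.03e-05, standard error 0.146). In both genes all controls lay above all mutants.

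Antigen presentation rose in both classes. For class I, 16 of 17 genes were higher, none was lower and the median was 2.24, with summed levels of 1059.6, 1387 and 1421 RPKM in the controls and 5627, 5293 and 5723 RPKM in the mutants. *B2m*, the light chain, stood at 354, 526 and 564 RPKM in the controls and 2084, 1947 and 2097 RPKM in the mutants. The transactivator *Nlrc5* came from 0.0815, 0.191 and 0.317 RPKM and reached 18.52, 23.6 and 21.2 RPKM, a log2 fold change of 6.78 (edgeR quasi-likelihood with Benjamini-Hochberg, adjusted p = 9.82e-10, standard error 0.307), and the peptide transporter *Tap1* and the immunoproteasome subunit *Psmb8* rose by 4.13 and 3.84. For class II, 6 of 8 genes were higher with a median of 1.41. *Cd74*, the invariant chain, stood at 43.6, 56.6 and 54.9 RPKM in the controls and 163, 118 and 117 RPKM in the mutants, and the transactivator *Ciita* at 0.301, 0.432 and 0.473 RPKM and 1.33, 1.78 and 1.01 RPKM. Both rose without overlap. *H2-Aa* (0.90) and *H2-Eb1* (0.89) stayed under the threshold.

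Antimicrobial products of the epithelium rose in 14 of 19 genes, none fell, and the median was 3.64. *Reg3b*, a lectin that kills Gram-negative bacteria, at chr6:78370657-78373466, stood at 23.2, 35.9 and 31.3 RPKM in the *Mlkl*-/- and 4805, 5384 and 5532 RPKM in the *Casp8* C362A/C362A *Mlkl*-/- embryos, the largest gain in RPKM among called genes and a log2 fold change of 7.44 (edgeR quasi-likelihood with Benjamini-Hochberg, adjusted p = 1.97e-09, standard error 0.366). *Reg3g*, its relative against Gram-positive bacteria, rose from 2.29, 3.30 and 5.88 RPKM to 1518, 1661 and 1708 RPKM, though reads of such close copies are uncertain. *Lypd8*, which keeps flagellated bacteria off the epithelium, was high before and higher after, 1201, 1334 and 1225 RPKM in the controls and 5848, 4843 and 5779 RPKM in the mutants. *Saa3*, an acute phase gene, rose from 0.169, 0.145 and 0.251 RPKM to 52.9, 56.3 and 48.5 RPKM, and the goblet cell product *Retnlb* from 0.0529, 0.149 and 0.439 RPKM to 24.9, 22.5 and 29.8 RPKM. *Lcn2*, which withholds iron from bacteria, rose by 4.62, and *Ang4*, an angiogenin of Paneth and goblet cells, rose from 1.14, 2.18 and 2.21 RPKM to 94.7, 147 and 133 RPKM. *Reg1* overlapped between the groups, at 12.8, 14.01 and 20.5 RPKM in the controls and 21.4, 7.53 and 119.5 RPKM in the mutants, of which the third embryo alone stood high.

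Enzymes that make reactive oxygen, nitric oxide and itaconate rose in 13 of 15 genes, 1 fell, and the median was 3.45. *Duox2*, the hydrogen peroxide source of the epithelial surface, stood at 0.0576, 0.180 and 0.0911 RPKM in the controls and 33.2, 33.5 and 40.7 RPKM in the mutants, and its maturation factor *Duoxa2* at 0.185, 0.259 and 0.137 RPKM and 87.3, 66.96 and 91.6 RPKM. Both came from near 0 and were called, at 8.32 and 8.67. *Nos2*, the inducible nitric oxide synthase, rose from 0.231, 0.192 and 0.183 RPKM to 17.3, 15.9 and 17.8 RPKM. *Ido1*, which degrades tryptophan, had 3 reads in the controls and 4597 in the mutants, 35.5, 31.5 and 23.6 RPKM, and the ratio of the scaled reads was 1455 (95% exact counting interval 498 to 7058). *Acod1*, which makes itaconate, had 1 read in the controls and 1785 in the mutants, a ratio of 1695 (95% exact counting interval 304 to 66985). *Nox4* fell from 22.3, 21.8 and 20.6 RPKM to 9.24, 7.53 and 9.97 RPKM (adjusted p = 0.0114 in the same edgeR test), but leaving out the second mutant embryo raised its adjusted p to 0.0524. Complement genes were higher in 9 of 13 and lower in 1, with a median of 1.47. *C3*, the central component, rose from 4.27, 3.63 and 3.83 RPKM to 35.3, 27.4 and 32.7 RPKM, while *Cfi*, the protease that inactivates it, fell from 69.2, 82.4 and 92.6 RPKM to 15.5, 10.7 and 15.4 RPKM, all mutants under all controls, a log2 fold change of -2.55 (edgeR quasi-likelihood with Benjamini-Hochberg, adjusted p = 1.74e-07, standard error 0.203).

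**Figure D2:**
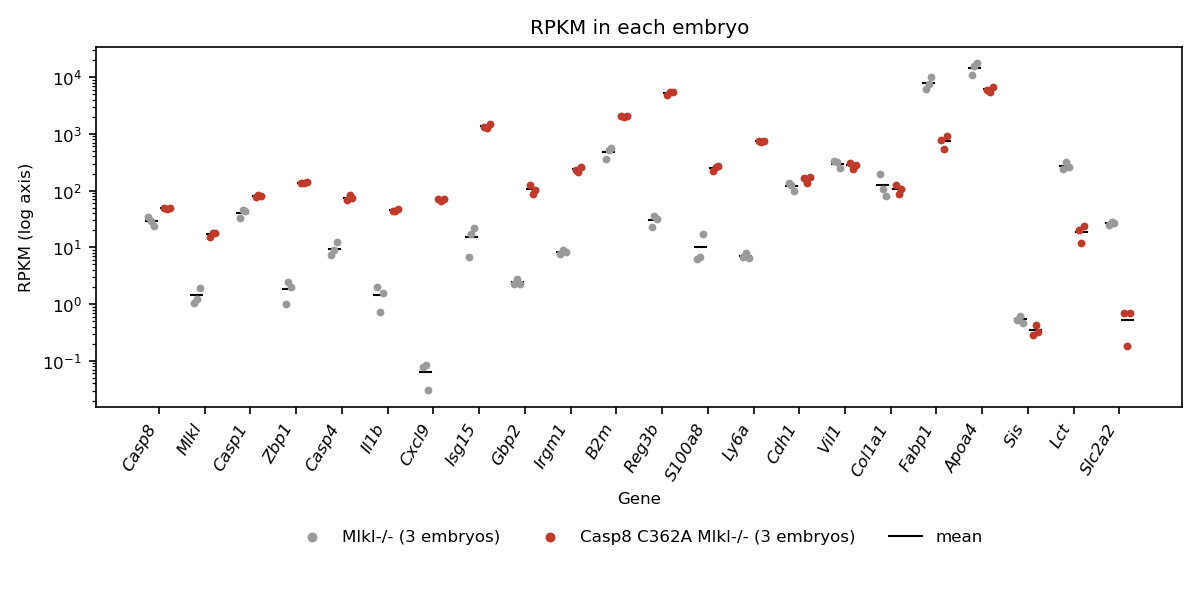
Each point is the level of a gene in 1 embryo in RPKM on a log axis, with 3 *Mlkl*-/- embryos in grey, 3 *Casp8* C362A/C362A *Mlkl*-/- embryos in red and a bar at each mean. The genotypes separate at *Isg15* and *Reg3b* (mutants above) and at *Fabp1* and *Slc2a2* (mutants below) and mix at *Cdh1*, *Vil1* and *Col1a1*.

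Because interferon, chemokine and lipid genes moved together by list, the 250 bases before the start of each gene were searched on both strands for the letters of a response element of each class, where A, C, G and T stand for bases and N for any base. The sequences are those of RefSeq for build GRCm38.p6, with 32851 promoters of 27025 genes. The interferon-stimulated response element was written as GAAA, any 2 bases and GAAA. It was present in 3.46% of all genes with a promoter and in 3.36% of the genes tested, against 9.62% of the genes called higher (128 of 1331) and 1.36% of the genes called lower (14 of 1026). These shares and those below count only genes that have a promoter in the table. By list, it was found in 13 of 24 antiviral effectors, 5 of 5 guanylate-binding proteins and 5 of 6 immunity-related GTPases, and in none of 14 NF-κB genes. The NF-κB element, GGGA, any base and TTTCC, was present in 0.414% of all genes and 0.497% of the genes tested. It was present in 1.43% of the genes called higher (19 of 1331) and 0.487% of the genes called lower (5 of 1026). By list, it was found in 3 of 8 CXC chemokines, 2 of 14 NF-κB genes and none of 12 CC chemokines. An element of HNF4, the enterocyte factor, CAAAGTNCA, was present in 1.40% of all genes and 1.36% of the genes tested. It was present in 2.73% of the genes called lower (28 of 1026) and 2.03% of those called higher (27 of 1331), and in 2 of 15 lipid absorption genes. The interferon and NF-κB letters occurred together in 7 promoters and overlapped in 1, and neither overlapped the HNF4 letters in any. A match of letters only describes the sequence, and binding was not measured.

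The promoters of 6 genes whose lists carry those letters are shown, read 5′ to 3′ on the strand of the gene up to its start, with the matches in capitals. In the first 4 the capitals mark the interferon letters or their complement, and overlapping matches run together. *Isg15* lies downstream of chr4:156200819-156201068 on the reverse strand and has 3 such matches, which begin 78, 72 and 66 bases before its start.

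Isg15: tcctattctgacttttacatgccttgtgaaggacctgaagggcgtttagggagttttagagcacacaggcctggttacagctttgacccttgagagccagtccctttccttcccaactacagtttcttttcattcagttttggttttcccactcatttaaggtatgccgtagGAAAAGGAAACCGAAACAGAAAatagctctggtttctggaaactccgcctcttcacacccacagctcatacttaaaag

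The *Irgm1* promoter is chr11:48871421-48871670 on the reverse strand, with 2 overlapping matches near the start.

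Irgm1: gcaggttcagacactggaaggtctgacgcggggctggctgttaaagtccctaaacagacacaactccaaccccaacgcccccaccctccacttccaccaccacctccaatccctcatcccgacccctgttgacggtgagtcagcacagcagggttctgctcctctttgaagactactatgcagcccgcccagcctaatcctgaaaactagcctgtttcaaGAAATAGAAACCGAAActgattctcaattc

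That of *Gbp2* is chr3:142620413-142620662 on the forward strand, with 1 match in the opposite orientation.

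Gbp2: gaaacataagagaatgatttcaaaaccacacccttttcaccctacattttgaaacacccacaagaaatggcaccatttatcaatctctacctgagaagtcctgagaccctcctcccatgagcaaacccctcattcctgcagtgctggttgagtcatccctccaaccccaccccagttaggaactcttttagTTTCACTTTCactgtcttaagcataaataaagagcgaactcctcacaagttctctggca

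For *Cxcl10*, whose level rose from 0.363, 0.702 and 0.545 RPKM to 155, 122 and 188 RPKM, it is chr5:92348890-92349139 on the reverse strand.

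Cxcl10: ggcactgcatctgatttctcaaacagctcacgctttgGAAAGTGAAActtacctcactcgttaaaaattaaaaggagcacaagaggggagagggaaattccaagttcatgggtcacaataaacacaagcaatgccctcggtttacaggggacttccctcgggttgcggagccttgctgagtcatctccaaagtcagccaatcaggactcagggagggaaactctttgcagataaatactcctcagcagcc

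In the remaining pair the capitals mark the NF-κB letters or their complement. *Cxcl2* has 1 match in chr5:90903649-90903898 on the forward strand.

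Cxcl2: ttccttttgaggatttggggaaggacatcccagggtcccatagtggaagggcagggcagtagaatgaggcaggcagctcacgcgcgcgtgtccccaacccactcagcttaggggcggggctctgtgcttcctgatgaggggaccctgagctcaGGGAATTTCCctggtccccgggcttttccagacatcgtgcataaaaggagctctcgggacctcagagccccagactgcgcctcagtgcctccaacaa

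*Nfkbia* has 1 match in chr12:55492648-55492897 on the reverse strand.

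Nfkbia: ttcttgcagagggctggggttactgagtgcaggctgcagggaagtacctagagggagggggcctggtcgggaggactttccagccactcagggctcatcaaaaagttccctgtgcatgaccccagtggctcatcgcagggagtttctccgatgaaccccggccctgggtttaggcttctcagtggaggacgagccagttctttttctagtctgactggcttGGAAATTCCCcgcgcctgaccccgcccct

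Marker genes of blood cells were higher in the mutant intestine for some cell types and for some markers only. Of 13 neutrophil genes 12 were tested, 9 were higher, none was lower and the median was 3.97. Their summed level was 26.9, 30.1 and 62.2 RPKM in the controls and 607, 718 and 753 RPKM in the mutants, and *S100a9*, a subunit of calprotectin, was the most abundant. *S100a8*, its other subunit, stood at 6.13, 6.80 and 16.95 RPKM in the controls and 223, 264 and 272 RPKM in the mutants, a log2 fold change of 4.69 (edgeR quasi-likelihood with Benjamini-Hochberg, adjusted p = 4.11e-08, standard error 0.322), and the third control was the highest of the controls. *Cxcr2*, the chemokine receptor of mature neutrophils, rose from 0.0965, 0.0226 and 0.0858 RPKM to 3.50, 3.96 and 5.18 RPKM, and *Csf3r*, the G-CSF receptor, by 4.04. Granule genes were mixed. *Ltf* rose by 3.18 and *Mmp8* by 4.54. *Mpo* stood at 0.241, 0.0237 and 0.240 RPKM and 0.0374, 0.123 and 0.261 RPKM and *Camp* at 0.776, 0.999 and 3.11 RPKM and 1.91, 2.11 and 2.29 RPKM, with overlapping groups and no call, *Ngp* was not called (0.17), and *Elane* had too few reads to test. *Mmp9* rose by 1.11, but only by 0.89, under the threshold, without the third mutant embryo. The part of these cells in the rises of chemokine and other inflammatory genes was not tested.

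Monocyte and macrophage genes were higher in 11 of 16 and lower in 1, with a median of 1.66, and their summed level was 184, 219.5 and 219.5 RPKM in the controls and 584, 578 and 567 RPKM in the mutants, with *Lyz2* the most abundant. *Ly6c2*, which marks inflammatory monocytes, rose from 0.170, 0.198 and 0.1004 RPKM to 12.4, 10.7 and 8.54 RPKM and their receptor *Ccr2* from 0.669, 0.779 and 0.722 RPKM to 2.77, 4.63 and 3.07 RPKM. Other macrophage genes were mixed. *C1qa* rose by 1.46 and *Cd68* by 2.00, whereas *Csf1r* stood at 51.3, 57.7 and 61.4 RPKM in the controls and 47.9, 40.9 and 49.8 RPKM in the mutants (-0.30), *Cx3cr1* and *Mrc1* had overlapping groups, and *Cd163* fell from 0.533, 0.261 and 0.379 RPKM to 0.113, 0.0873 and 0.0886 RPKM, a log2 fold change of -2.01 (edgeR quasi-likelihood with Benjamini-Hochberg, adjusted p = 4.89e-04, standard error 0.368). T and NK cell genes were higher in 9 and lower in 1 of 13 tested, of 16 listed, with a median of 1.60 and summed levels of 28.3, 40.3 and 40.7 RPKM and 77.6, 69.7 and 73.9 RPKM. *Gzma* was the most abundant, and *Gzmb*, another granzyme of killer cells, stood at 0.410, 0.407 and 0.182 RPKM in the controls and 18.9, 12.5 and 14.9 RPKM in the mutants. The T cell receptor genes *Cd3e* and *Cd3d* had too few reads to test and stayed at or below 0.244 RPKM in all 6 embryos. Their partner *Cd3g* was tested and rose by 1.31. The part of these cells in the rises of interferon and chemokine genes was not tested.

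Mast cell and eosinophil genes were higher in 4 of 8 tested, of 10 listed, with a median of 1.68 and summed levels of 16.1, 14.5 and 9.23 RPKM in the *Mlkl*-/- and 21.4, 23.7 and 30.6 RPKM in the *Casp8* C362A/C362A *Mlkl*-/- embryos, *Kit* being the most abundant. The mucosal mast cell proteases *Mcpt1* and *Mcpt2* rose from 0.895, 0.770 and 0.424 RPKM to 3.80, 5.13 and 7.84 RPKM and from 0.265, 0.319 and 0.314 RPKM to 2.20, 4.22 and 5.99 RPKM. Of the general mast cell genes *Cpa3* and *Tpsb2* overlapped between the groups and *Ms4a2* rose by 2.91, and of the eosinophil genes *Siglecf* rose by 2.18 and *Epx* and *Prg2* had too few reads to test. Endothelial genes were higher in 5 of 10 with a median of 1.07 and summed levels of 103, 84.01 and 71.9 RPKM and 169, 146 and 162 RPKM, *Icam1* being the most abundant. The markers *Pecam1* and *Cdh5* were not called, with log2 fold changes of 0.08 and -0.07, but *Lyve1* rose by 1.73. Of the adhesion molecules that hold leukocytes *Madcam1* was not called (0.91), and others rose, *Icam1* by 2.52, *Selp* by 3.50 and *Vcam1* by 1.23. The part of these cells in the other results was not tested.

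Defining genes of the intestinal epithelium were abundant in all 6 embryos. Of 10 such genes 1 was called higher and none lower, with a median of 0.45 and summed levels of 4265, 4397 and 3960.4 RPKM in the controls and 4682, 3792 and 4351 RPKM in the mutants. The brush border protein *Vil1* stood at 332, 315 and 246 RPKM in the controls and 305, 242 and 287 RPKM in the mutants, and E-cadherin, *Cdh1*, at 136, 127 and 99.8 RPKM and 169, 133 and 176 RPKM. Both overlapped between the groups. *Krt20*, a keratin of the villus tip, was the gene called, with a rise of 2.23.

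Digestive enzymes of the brush border fell in 8 of 17 genes, none rose, and the median was -0.88. Lactase, the sugar enzyme of suckling age encoded by *Lct*, stood at 243, 313 and 259 RPKM in the controls and 19.8, 11.7 and 23.3 RPKM in the mutants. All mutants lay far under the controls, a log2 fold change of -3.89 (edgeR quasi-likelihood with Benjamini-Hochberg, adjusted p = 2.38e-04, standard error 0.653). The peptidase neprilysin, *Mme*, fell from 40.2, 53.1 and 44.3 RPKM to 1.36, 1.21 and 1.85 RPKM, a log2 fold change of -4.96 (same edgeR test, adjusted p = 4.78e-07, standard error 0.437), and intestinal alkaline phosphatase, *Alpi*, from 489, 655 and 681 RPKM to 251, 208 and 257 RPKM. Trehalase, *Treh*, had 109 reads over the controls and 1 over the mutants, and the ratio of controls to mutants was 115 (95% exact counting interval 20.2 to 4575). The ectopeptidase *Anpep* lay above its controls in all mutants, at 343, 366 and 278 RPKM and 599, 443 and 598 RPKM, but was not called (0.73), and *Dpp4* (-0.32) and *Enpep* (-0.41) were not called. Sucrase-isomaltase, *Sis*, an enzyme of weaning, stood at no more than 0.624 RPKM in any embryo. *Ace* fell, with a log2 fold change of -1.36 and an adjusted p of 0.0465 in the same edgeR test, and its call was lost whichever of the 6 libraries was left out.

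Lipid absorption genes include the 2 largest losses in RPKM among called genes, *Apoa4* and *Fabp1*. Of 20 genes 15 were lower, none was higher and the median was -1.39, and the summed level was 32557, 45385 and 52979 RPKM in the *Mlkl*-/- and 17783, 15707 and 19538 RPKM in the *Casp8* C362A/C362A *Mlkl*-/- embryos. The fatty acid binding protein *Fabp1*, at chr6:71199827-71205023, stood at 6042, 7696 and 10229 RPKM in the controls and 764, 542 and 918 RPKM in the mutants, a log2 fold change of -3.43 (edgeR quasi-likelihood with Benjamini-Hochberg, adjusted p = 2.69e-07, standard error 0.285), and *Fabp2* at 4543, 6968 and 8989 RPKM and 1658, 1455 and 1965 RPKM. All controls lay above all mutants in both. The triglyceride enzymes *Mogat2* and *Dgat2* fell from 315, 392.2 and 408 RPKM to 97.5, 72.9 and 92.6 RPKM and from 627, 808 and 892 RPKM to 193, 140.3 and 207 RPKM. *Mttp*, which loads lipid on apolipoprotein B, and *Apob* itself fell, with log2 fold changes of -1.46 and -1.28. *Apoa4* stood at 11025, 15385 and 17453 RPKM in the controls and 6009, 5506 and 6699.8 RPKM in the mutants (adjusted p = 0.0233 in the same edgeR test), and its call was lost in 5 of the 6 fits without 1 library, with an adjusted p of 0.0549 without the third control embryo and up to 0.0641 without the second mutant embryo. *Apoa1*, with overlapping groups at 6824, 10080.0 and 10558 RPKM and 7432, 6535 and 7882 RPKM, was not called.

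Nutrient and ion transporters fell in 10 of 20 genes, none rose, and the median was -1.01. GLUT2, the basolateral glucose carrier encoded by *Slc2a2*, stood at 24.3, 28.5 and 27.1 RPKM in the controls and 0.695, 0.179 and 0.688 RPKM in the mutants, a log2 fold change of -5.68 (edgeR quasi-likelihood with Benjamini-Hochberg, adjusted p = 2.17e-08, standard error 0.361). The apical glucose carrier SGLT1, *Slc5a1*, was at 127, 126 and 119 RPKM and 107, 90.3 and 110.0 RPKM and was not called. The peptide carrier *Slc15a1* fell from 18.9, 23.8 and 22.9 RPKM to 7.27, 8.10 and 9.19 RPKM, and the neutral amino acid carrier *Slc6a19*, the iron carrier *Slc11a2* and the chloride exchanger *Slc26a3* had log2 fold changes of -1.75, -1.80 and -2.56.

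Bile acid genes went both ways, 2 higher and 3 lower of 8 with a median of -0.61. The uptake carrier of the ileum, *Slc10a2*, rose from 1.09, 1.38 and 1.55 RPKM to 4.38, 8.92 and 6.08 RPKM, and the ileal bile acid binding protein *Fabp6* from 16.2, 30.8 and 40.1 RPKM to 187, 132 and 159.9 RPKM, a log2 fold change of 2.46 (edgeR quasi-likelihood with Benjamini-Hochberg, adjusted p = 7.18e-06, standard error 0.283). The bile acid receptor FXR, *Nr1h4*, fell from 109, 115 and 108 RPKM to 52.98, 49.8 and 51.4 RPKM, a log2 fold change of -1.11 that was -0.96 and not called with raw library totals. Its target SHP, *Nr0b2*, fell from 6.21, 12.01 and 10.4 RPKM to 0.415, 0.157 and 0.351 RPKM, a log2 fold change of -4.93 (same edgeR test, adjusted p = 3.36e-08, standard error 0.331), while *Fgf15*, another target, overlapped between the groups at 1.20, 4.64 and 1.95 RPKM and 2.32, 0.767 and 3.28 RPKM. Transcription factors of enterocytes were higher in 1 and lower in 4 of 16, with a median of -0.49. The HNF4 gene *Hnf4a* overlapped, at 167, 157 and 125 RPKM and 154, 113 and 149.5 RPKM. *Ppara*, the receptor that drives fat burning, fell from 5.62, 6.04 and 5.66 RPKM to 1.12, 1.20 and 1.52 RPKM and *Gata6* from 55.97, 48.95 and 43.4 RPKM to 21.3, 18.9 and 22.3 RPKM, and *Klf4*, a factor of differentiated and goblet cells, rose by 1.57. Of 13 cytochrome P450 genes 9 were tested, 4 lower and 1 higher with a median of -0.88, but the rise of *Cyp4v3* was not called in 7 of 16 alternatives and the fall of *Cyp2c55* in 11.

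Fatty acid oxidation and ketogenesis fell in 11 of 13 genes with none higher and a median of -1.30, and the summed level was 1762, 1864 and 1604 RPKM in the *Mlkl*-/- and 624, 454 and 573 RPKM in the *Casp8* C362A/C362A *Mlkl*-/- embryos. The thiolase *Acaa2*, the most abundant member, stood at 496, 565 and 512 RPKM in the controls and 76.4, 47.1 and 65.1 RPKM in the mutants, a log2 fold change of -3.06 (edgeR quasi-likelihood with Benjamini-Hochberg, adjusted p = 1.04e-08, standard error 0.179), and the carnitine enzyme *Cpt2* fell from 62.7, 64.1 and 50.7 RPKM to 23.95, 16.8 and 23.3 RPKM. Every mutant lay under every control in these genes. *Cpt1a* fell too, but its log2 fold change of -1.04 became -0.91 without the second mutant embryo and -0.90 with raw library totals, neither of them called. Cholesterol synthesis genes were lower in 2 and higher in none of 15, with a median of -0.64, and the call of *Lss* was lost with raw library totals and without the first control embryo. *Insig1*, the sterol sensor, fell from 240.0, 214 and 260.0 RPKM to 83.4, 68.5 and 89.5 RPKM.

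Goblet cell genes were higher in 4 of 12 and lower in none, with a median of 0.83 and summed levels of 2297, 3104 and 3251 RPKM in the controls and 4981, 5205 and 5075 RPKM in the mutants. The mucin gene *Muc2* rose from 50.6, 68.95 and 63.4 RPKM to 159, 141 and 151 RPKM and the lectin *Zg16* from 31.9, 68.2 and 66.3 RPKM to 259, 314 and 376 RPKM. Enteroendocrine genes were higher in 2 and lower in 2 of 17, with a median of 0.38, beside 10.4% and 7.55% of all genes tested. *Chga*, the general marker of enteroendocrine cells, overlapped at 23.9, 26.4 and 21.9 RPKM and 31.3, 23.9 and 27.9 RPKM. *Leap2*, which blocks the ghrelin receptor and is made by enterocytes too, fell from 119, 262 and 477 RPKM to 6.20, 4.43 and 6.81 RPKM, a log2 fold change of -5.62 (edgeR quasi-likelihood with Benjamini-Hochberg, adjusted p = 8.53e-08, standard error 0.417), while *Ghrl*, the ghrelin gene, was not called (-0.19). The stem cell list had 2 higher and 1 lower of 12 and a median of 0.25. *Lgr5* stood at 2.99, 2.47 and 2.56 RPKM in the controls and 1.73, 2.40 and 1.90 RPKM in the mutants and *Olfm4* overlapped, neither of them called. *Axin2*, a target of Wnt signalling, rose by 1.48 and *Cd44* by 2.53.

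Genes of fetal-like, regenerating epithelium were higher in 11 of 15 with none lower and a median of 3.36, and their summed level was 226, 209 and 185 RPKM in the controls and 1932, 1725 and 1935 RPKM in the mutants. Sca-1, *Ly6a*, at chr15:74994877-74998031, stood at 6.81, 7.81 and 6.43 RPKM in the controls and 762, 727 and 743 RPKM in the mutants, a log2 fold change of 6.73 (edgeR quasi-likelihood with Benjamini-Hochberg, adjusted p = 1.05e-09, standard error 0.307). Interferons induce *Ly6a* as well. *Sprr1a*, a cornified envelope protein of injured epithelium, rose from 0.274, 0.427 and 0.595 RPKM to 46.8, 46.2 and 56.8 RPKM, *Anxa1* from 13.4, 12.97 and 10.5 RPKM to 41.98, 34.6 and 47.1 RPKM and the claudin *Cldn4* from 33.7, 30.2 and 30.7 RPKM to 369.9, 322 and 389 RPKM. None of these groups overlapped. *Clu*, which marks revival stem cells, stood at 4.45, 3.84 and 4.17 RPKM and 8.21, 4.68 and 8.27 RPKM and was not called (0.76). Junction genes were otherwise mixed, 2 higher and 1 lower of 12 with a median of 0.03. Cell cycle genes had 2 higher and 1 lower of 21 and a median of 0.61, beside 10.4% higher and 7.55% lower over all genes tested. *Mki67* overlapped, at 23.3, 17.4 and 16.1 RPKM and 22.9, 24.7 and 23.6 RPKM, *Ccne1*, which starts DNA replication, rose from 9.03, 7.69 and 7.32 RPKM to 27.4, 31.9 and 27.9 RPKM, and the growth inhibitor *Cdkn1c*, an imprinted gene, fell from 975, 1006 and 658 RPKM to 225, 99.7 and 155 RPKM, a log2 fold change of -2.46 (same edgeR test, adjusted p = 1.67e-05, standard error 0.309).

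Genes of the wall of the gut differed little. No gene was called among 14 of fibroblasts and collagen (median -0.11, and 0.03 with raw library totals) and 10 of smooth muscle (median 0.11), and *Col1a1* and *Myh11* overlapped between the groups, at 196, 108 and 79.1 RPKM and 127, 88.4 and 106 RPKM and at 122, 86.2 and 62.7 RPKM and 85.3, 68.5 and 61.9 RPKM. Matrix remodelling genes, in contrast to the collagens, were higher in 8 of 12 tested with none lower and a median of 1.69. Matrilysin, *Mmp7*, rose by 3.98, stromelysin 2, *Mmp10*, by 4.15 and the urokinase receptor *Plaur* from 3.22, 2.40 and 2.69 RPKM to 43.4, 34.9 and 42.7 RPKM, a log2 fold change of 3.86 (edgeR quasi-likelihood with Benjamini-Hochberg, adjusted p = 7.24e-10, standard error 0.163). Enteric neuron and glia genes were higher in 2 and lower in 1 of 12 with a median of -0.28. The neuropeptide *Vip* rose from 9.35, 9.96 and 8.03 RPKM to 27.5, 31.4 and 20.3 RPKM, the glial gene *S100b* fell, with a log2 fold change of -1.39, and *Gfap*, also glial, rose by 2.34, a call lost in 4 of 16 alternatives. Stress response genes were higher in 2 of 12 with a median of 0.18. *Atf3*, a fast stress factor, rose from 3.04, 2.92 and 4.15 RPKM to 74.6, 65.6 and 81.4 RPKM, a log2 fold change of 4.46 (same edgeR test, adjusted p = 4.89e-10, standard error 0.179), whereas the chaperone of the endoplasmic reticulum *Hspa5* overlapped at 342, 319 and 267 RPKM and 366, 278 and 353 RPKM.

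Genes of neighbouring organs and of blood were read as measures of other tissue in the samples. Of 10 erythroid genes listed 8 were tested and 4 were lower, with a median of -0.98 and summed levels of 1002, 778 and 2409.5 RPKM in the controls and 600.4, 610.4 and 828 RPKM in the mutants, *Hbb-bs* being the most abundant. Without the third control embryo, the highest of the 6, the log2 fold change of *Hbb-bs* was -0.29 in place of -1.01, that of *Alas2* -0.89 in place of -1.28, that of *Hba-a1* -0.79 in place of -1.27 and that of *Hba-a2* -0.75 in place of -1.21, so none of the 4 was called, and the call of *Hbb-bs* was lost in 10 of 16 alternatives. The counts of the hemoglobin genes, which are close copies, are uncertain. Of 8 liver genes 5 were lower, with a median of -2.41 and summed levels of 1187, 1343 and 1122 RPKM and 608, 453 and 528 RPKM, *Afp* being the most abundant, a gene that fetal intestine expresses too. *Alb* stood at 10.8, 1.35 and 34.9 RPKM in the controls and 0.160, 0.0525 and 0.480 RPKM in the mutants, and its call was lost without the third control embryo (adjusted p = 0.0683 in the same edgeR test), without any one of the mutant embryos and with limma-voom. The call of *Ahsg* was lost in the same 5 settings. That of *Apoh* was lost without the third control embryo (-1.95) and without the first or second mutant embryo. The count of 5 lower liver genes thus rests in part on the third control embryo. *Cps1*, an enzyme of enterocytes as well as of liver, fell from 513, 498 and 356 RPKM to 172, 124 and 174 RPKM. Of 10 pancreatic acinar genes 7 were tested, 1 higher (*Prss2*, not called in 4 of 16 alternatives) and 1 lower (*Cela1*, not in 3), with summed levels of 14.8, 29.9 and 43.7 RPKM and 24.8, 13.4 and 38.8 RPKM, and the acinar factor *Ptf1a* had too few reads to test. Of 10 stomach genes 7 were tested, 4 higher and 2 lower, with a median of 4.64, the same with *Gkn2* at its bound, and summed levels of 5.03, 6.59 and 6.99 RPKM and 3.40, 4.10 and 101 RPKM. *Tff2* stood at 0.567, 0.530 and 0.746 RPKM in the controls and 0.619, 0.305 and 73.3 RPKM in the mutants, so its log2 fold change of 5.33 rests on the third mutant embryo and was -0.39 without it, and its call was lost in 5 other alternatives. That of *Tff1* was 5.84 with all embryos and 1.66, no longer called, without the third mutant embryo, and its call was also lost without the second control embryo and with limma-voom. The stomach list's median of 4.64 and its count of 4 higher therefore rest in part on the third mutant embryo. The calls of *Gkn1* and *Gkn2*, higher, and of *Pga5* and *Atp4a*, lower, were kept in every alternative that tested them. *Gkn2* had no read in the controls and 103 in the mutants. Scaled to all 30 intestine libraries, it stood at 1.11, 1.78 and 1.77 RPKM in the 3 mutant embryos. The part of other organs in the remaining results was not tested.

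Beyond the lists, a rule took the 10 largest rises and falls and the 10 largest gains and losses in RPKM, of which only some are described. The falls also held *Csrp3* (log2 fold change -6.35), *Lipf* (-6.30), *Sdr16c5* (-6.19), *C8b* (-5.86) and *Nr2e3* (-5.85), and *Alb* and *Ahsg* of the liver list. The largest rise under that rule was that of *Ubd*, which encodes the ubiquitin-like FAT10, from 0.158, 0.222 and 0.234 RPKM in the controls to 290.3, 405 and 399.6 RPKM in the mutants, a log2 fold change of 10.77 (edgeR quasi-likelihood with Benjamini-Hochberg, adjusted p = 8.23e-10, standard error 0.466). *Gm4841*, a GTPase gene, had no read in the controls and 2.46, 2.95 and 2.99 RPKM in the mutants, at least 209.8-fold by the floor of 3 reads, and *U90926* likewise came from 0 reads, at least 45.3-fold. *Slfn4*, an interferon target of myeloid cells, rose from 0.612, 1.11 and 1.69 RPKM to 329, 632 and 540.2 RPKM. The retinol dehydrogenase *Rdh7* had 0.482, 1.52 and 1.56 RPKM in the controls and no read in the mutants, at least 54.8-fold. *Abcb11*, the bile salt export pump, fell from 23.6, 34.2 and 30.9 RPKM to 0.155, 0.132 and 0.140 RPKM, a log2 fold change of -7.69 (same edgeR test, adjusted p = 4.89e-10, standard error 0.307). The retinol carrier *Rbp2* was among the largest losses in RPKM, from 2786, 3632 and 3996 RPKM to 685, 515 and 754 RPKM. So was *H19*, an imprinted growth-related transcript without protein, which stood at 9197, 7055 and 5964 RPKM in the controls and 2085, 843 and 1432 RPKM in the mutants, a log2 fold change of -2.35 (same edgeR test, adjusted p = 1.48e-04, standard error 0.373). The neonatal Fc receptor *Fcgrt*, which takes up maternal antibody, fell from 994, 1561 and 1569 RPKM to 479, 423 and 599.6 RPKM, and endotubin, *Mamdc4*, a protein of suckling enterocytes, from 1373, 1519 and 1854 RPKM to 482, 317 and 389 RPKM.

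Genes that flank the targeted locus can carry alleles of the strain in which it was targeted. Within 5 Mb of *Casp8*, 80 genes were tested, 11 were higher (13.8%, beside 10.4% of all genes tested) and 3 lower (3.75%, beside 7.55%). Among them, *Spats2l* rose from 7.70, 6.77 and 5.69 RPKM to 38.5, 35.6 and 43.3 RPKM, *Ctla4*, an inhibitory receptor of T cells, from 0.0571, 0.0356 and 0.135 RPKM to 2.86, 1.58 and 2.21 RPKM, and *Pard3b*, a polarity gene, fell from 5.76, 4.43 and 3.68 RPKM to 1.91, 1.60 and 1.85 RPKM. Whether linked alleles differ between the groups was not tested.

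The C362A effect was then compared with that of *Casp8* 1xDA/1xDA *Cflar*-/- *Mlkl*-/-, where caspase-8 cannot be processed at D387 and cFLIP is missing, against the *Mlkl*-/- controls of its own set. No library is shared between these comparisons. Below, D387A stands for that whole genotype, so the *Casp8* allele and the loss of *Cflar* differ from the C362A embryos together. The difference of the log2 effects, C362A minus D387A, was tested for 19643 genes in a fit of all 30 intestine libraries, to which the RPKM values of these paragraphs are scaled. It was called higher for 1255 genes (6.39%) and lower for 210 (1.07%), with a median of 0.04. For antiviral effectors 22 of 29 were called higher and none lower, and the medians of the effects were 4.85 for C362A and 2.24 for D387A, for immunity-related GTPases 7 of 7 (5.24 and 2.60), and for guanylate-binding proteins 8 of 11 (5.39 and 3.13). Of interferon signalling factors 9 of 15 were called higher (1.56 and 0.55) and of nucleic acid and microbial sensors 7 of 19 (2.35 and 1.29). *Ifit1* stood at 11.5, 19.4 and 26.3 RPKM in the *Mlkl*-/- controls and 209, 209.9 and 269 RPKM in the *Casp8* C362A/C362A *Mlkl*-/- embryos. In the other set it stood at 27.1, 49.8 and 24.1 RPKM in the controls and 58.4, 29.6 and 54.1 RPKM in the *Casp8* 1xDA/1xDA *Cflar*-/- *Mlkl*-/- embryos. The rise was thus large with C362A and not called with D387A, a difference of 3.10 (standard error 0.547, adjusted p = 2.66e-04 in edgeR quasi-likelihood with Benjamini-Hochberg). For *Isg15* the *Casp8* 1xDA/1xDA *Cflar*-/- *Mlkl*-/- embryos had 324, 169 and 333 RPKM over 23.7, 49.2 and 28.9 RPKM in their controls, which rose too, and the difference was 3.46 (standard error 0.762, adjusted p = 0.00225 in the same edgeR test).

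Antigen presentation differed in the same direction. All 8 class II genes were called higher in the difference, with median effects of 1.42 for C362A and -0.01 for D387A, as were 11 of 17 class I genes (2.25 and 1.07). Of 16 monocyte and macrophage genes, 5 were called higher in the difference too, *Csf1r* (1.53) among them, and 1 lower. The part of these cells in the class II difference was not tested. *H2-Ab1* stood at 18.7, 24.9 and 26.7 RPKM in the controls and 61.9, 54.5 and 42.3 RPKM in the *Casp8* C362A/C362A *Mlkl*-/- embryos, against 29.7, 29.7 and 27.3 RPKM in the controls and 24.5, 27.9 and 29.6 RPKM in the *Casp8* 1xDA/1xDA *Cflar*-/- *Mlkl*-/- embryos, where the groups overlapped. Its difference was 1.25 (standard error 0.261, adjusted p = 0.00134 in edgeR quasi-likelihood with Benjamini-Hochberg). Of the inflammasome list, 9 of 20 were called higher and none lower. *Casp1* stood at 42.1, 43.1 and 45.1 RPKM in the controls and 34.9, 29.02 and 30.9 RPKM in the *Casp8* 1xDA/1xDA *Cflar*-/- *Mlkl*-/- embryos, below them, and its difference was 1.45 (standard error 0.207, adjusted p = 2.48e-05 in the same edgeR test). *Gsdmc2* reached only 0.992, 1.83 and 4.60 RPKM in the *Casp8* 1xDA/1xDA *Cflar*-/- *Mlkl*-/- embryos, a difference of 4.83.

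Absorptive genes fell less with C362A than with D387A. Lipid absorption genes were called higher in the difference in 14 of 20 (medians of -1.39 for C362A and -2.83 for D387A), brush border enzymes in 10 of 17 with 1 lower (-0.87 and -3.14), transporters in 9 of 20 and bile acid genes in 6 of 8 (-0.61 and -2.78), and no gene of the lipid, transporter and bile acid lists was called lower. *Fabp1* stood at 742, 547 and 907 RPKM in the *Casp8* C362A/C362A *Mlkl*-/- embryos but at 38.1, 38.4 and 34.9 RPKM in the *Casp8* 1xDA/1xDA *Cflar*-/- *Mlkl*-/- embryos, with controls at 5791, 7569.9 and 10252 RPKM and 6719.5, 6984 and 6423 RPKM, and the difference was 4.07 (standard error 0.309, adjusted p = 1.07e-08 in edgeR quasi-likelihood with Benjamini-Hochberg). *Lct* stood at 0.980, 0.303 and 1.01 RPKM in the *Casp8* 1xDA/1xDA *Cflar*-/- *Mlkl*-/- embryos, which is lower than in any *Casp8* C362A/C362A *Mlkl*-/- embryo, a difference of 4.64 (standard error 0.771, adjusted p = 1.42e-04 in the same edgeR test). *Fabp6* moved in opposite directions, up with C362A and down with D387A, where it stood at 83.7, 75.3 and 67.4 RPKM in the controls and 7.65, 6.95 and 9.34 RPKM in the mutants, a difference of 5.70 (standard error 0.958, adjusted p = 1.62e-04 in the same edgeR test).

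Some lists showed few called differences or none. Of the CXC chemokines none of 11 was called (median effects of 5.64 and 6.13), of the NF-κB genes 1 of 18 (1.70 and 1.83) and of fatty acid oxidation none of 13 (-1.29 and -1.25). A p that misses the threshold does not show that these effects were equal. The stem cell list ran the other way, with 4 of 12 called lower and none higher and median effects of 0.26 and 1.37. *Lgr5* stood at 2.94, 2.45 and 2.60 RPKM in the controls and 5.86, 10.8 and 5.82 RPKM in the *Casp8* 1xDA/1xDA *Cflar*-/- *Mlkl*-/- embryos, which did not overlap, a difference of -1.88 (standard error 0.298, adjusted p = 8.15e-05 in edgeR quasi-likelihood with Benjamini-Hochberg), and *Olfm4* rose there from 30.5, 28.9 and 35.2 RPKM to 97.7, 154 and 101 RPKM, a difference of -1.79 (standard error 0.446, adjusted p = 0.00613 in the same edgeR test). The scavenger receptor *Marco*, a macrophage gene, had the lowest difference, -5.40, with 0.274, 0.299 and 0.445 RPKM in the *Casp8* C362A/C362A *Mlkl*-/- and 12.4, 10.1 and 10.03 RPKM in the *Casp8* 1xDA/1xDA *Cflar*-/- *Mlkl*-/- embryos. It was the 1 gene called lower of 16 monocyte and macrophage genes, of which 5 were called higher. Those were *Ly6c2* (4.64), *Ccr2* (2.36), *Fcgr1* (1.64), *Csf1r* (1.53) and *Lyz2* (1.08). Of the 5 highest called differences, those of the stomach genes *Gkn2* and *Tff1* and of *Cldn18*, at 11.30, 10.95 and 10.94, rest on the third control of the D387A set, which carries stomach transcripts, and were 0.71, 1.40 and 0.65 and no longer called without it. The differences of *Gkn2* and *Tff1* were also not called with limma-voom, nor that of *Tff1* without the third *Casp8* C362A/C362A *Mlkl*-/- embryo. With the third control of the D387A set left out, a choice made after seeing the data, 1345 differences were called in place of 1465. Of 180 listed genes with a called difference, 135 kept the call under each of the alternatives.

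**Figure D3:**
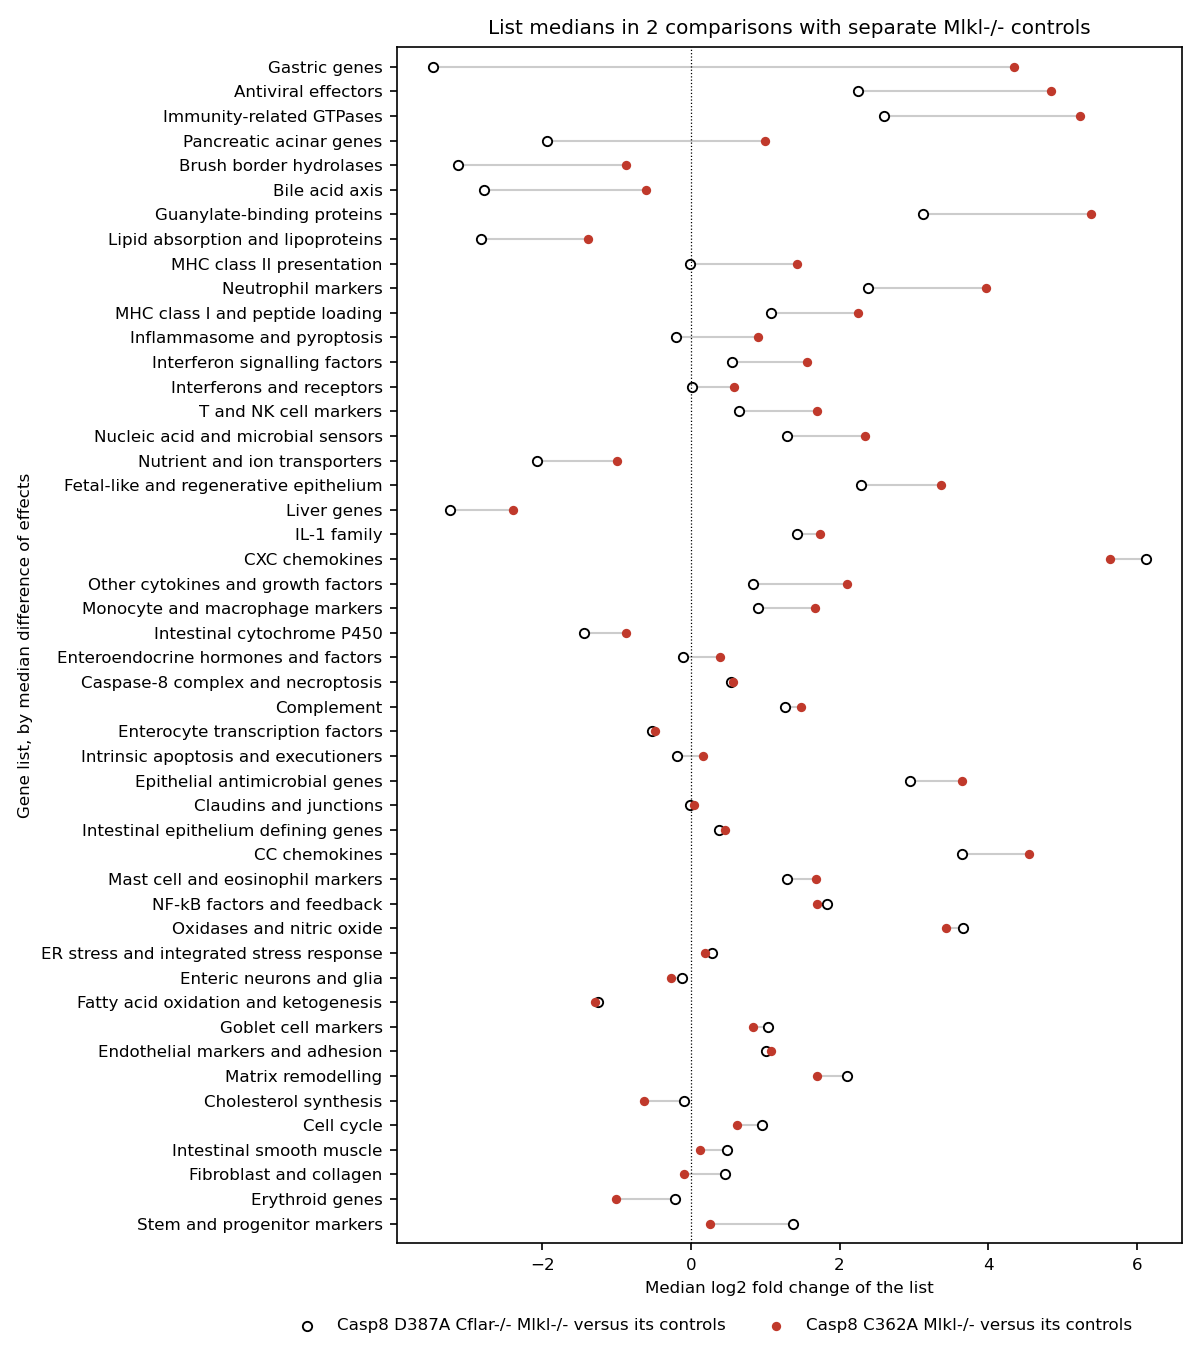
Each row is a gene list, ordered by the median difference of effects, with its median log2 fold change in *Casp8* C362A/C362A *Mlkl*-/- (filled red) and in *Casp8* 1xDA/1xDA *Cflar*-/- *Mlkl*-/- intestines (open black), each over its own *Mlkl*-/- controls with 3 embryos a group. The antiviral effectors stand at 4.85 and 2.24, the brush border enzymes at -0.87 and -3.14, and fatty acid oxidation at -1.29 and -1.25.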

How the data were processed

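The authors deposited gene counts: as deposited, per library, these are the reads aligned uniquely to the mouse genome (GRCm38) with GSNAP and counted per gene, not normalized. The counting tool and its annotation are not given. The library protocol is not known, since the labels name an unstranded kit and the published methods a stranded one, so reads of overlapping antisense genes are uncertain.

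From the counts, all else was computed here with R 4.3.3, edgeR 4.0.16, limma 3.58.1 and DESeq2 1.42.0. Of 52636 genes listed, 52489 matched GENCODE M21. filterByExpr (minimum count 10, minimum total 15) kept 19408 genes in a fit of the 12 libraries of the C362A set, all 4 of its genotypes included. Library sizes were scaled by TMM, and edgeR's quasi-likelihood F test was adjusted over all genes tested by Benjamini-Hochberg, with a prior count of 0.125 and a biological coefficient of variation of 0.162. A standard error is the fold change over the square root of F. RPKM was computed from counts, gene width and TMM-scaled library sizes. The difference between the C362A and D387A effects was fitted in the 30 intestine libraries, whose scaling gives slightly different RPKM.

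A written rule set which genes could be named. It took the targeted genes, members of the gene lists and called genes within 5 Mb of *Casp8*. It took the 10 largest rises and falls among called protein-coding genes whose groups do not overlap. Their higher mean had to be at least 1 RPKM. It also took the 10 largest gains and losses in mean RPKM among called genes, and the 5 largest called differences each way. The rule, the lists and their members were written with earlier results of these data known, so the naming of genes was not independent of the data. Exact permutation tests were two-sided, and 3 against 3 cannot give a p under 0.1. Intervals (95%) and the floor of 3 reads cover counting error only. Replicate numbers were not used as pairs. No libraries were duplicates of each other.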

Additional observations from a re-analysis of the deposited data

How the results depend on the processing

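The calls were recomputed under 16 alternatives, 10 of the processing and 6 that leave out 1 library each, and the differences from D387A under 9. Some alternatives did not test every named gene. The genes called higher, 2021 as reported, numbered 1961 with DESeq2's size factors, 2474 with raw library totals, 2164 without a filter, 1378 with a mean of at least 50 reads (14777 genes tested), 1927 with DESeq2, 1999 with limma-voom, 1932 with the 6 libraries alone, 1991 with the replicate number as a block, 2040 with sex as a covariate and 1961 with a prior count of 2. In the same order the genes called lower, 1466 as reported, numbered 1522, 1186, 1613, 1044, 1498, 1441, 1452, 1450, 1472 and 1427. Without 1 library they ranged from 1853 to 2112 higher and from 1349 to 1606 lower.

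Of 403 named genes called, 361 kept the call in each alternative that tested them and 42 lost it at least once. Raw totals moved the median of all genes from 0.02 to 0.17, ended 12 of these calls and gave 24 new ones. A single called gene changed sign: the log2 fold change of *Tff2* was -0.395 without *Casp8* C362A/C362A *Mlkl*-/- replicate 3, the embryo with stomach transcripts, and over the libraries left out it ranged from -0.395 to 5.905. The cause was not tested.

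The difference from the D387A effect was called for 1465 genes, 1455 with DESeq2's size factors and 1433 with limma-voom, and for 1080 to 1873 without 1 library of the C362A comparison. Without the third control of the D387A set, an alternative chosen after seeing the data, it was called for 1345 genes. Genes with few reads, such as the interferon genes, are limited by depth.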
